A study of Mus musculus with 4 samples.

Results

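The genes described here are 42 genes of the contractile apparatus and of early muscle fibres, followed across all 4 arrays of an experiment on mouse forelimbs. They were chosen by name as sarcomere, muscle differentiation and acetylcholine receptor genes, and each of the 42 had a probe set among the 23185 named genes of the array. Forelimbs came from C57BL/6 embryos at stage E11.5, either wild type or Shox2 knockout, and 2 arrays were hybridised per genotype. Array titles carry the number 48 or 50 in each genotype, and the labels do not say what this number stands for. Each array held RNA of pooled tissue of a genotype; the sample labels count limbs and the series' design text counts embryos of different pregnancies. A p-value here therefore measures only the spread between pools, which may be technical. The labels name the knockout without describing its allele.

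Skeletal muscle of the limb comes from somite cells that migrate into the bud, express the myogenic regulators Myf5 and Myod1, switch on Myog and then fuse into fibres. In the sarcomere, thin filaments of actin, tropomyosin and troponin slide along thick filaments of myosin, with titin and nebulin as scaffolds, alpha-actinin at the Z-disc and myomesin at the M-band. Embryonic fibres use isoforms that the adult keeps in the heart or in slow muscle, such as cardiac actin, cardiac troponin T and the embryonic light chain Myl4. Stage E11.5 lies at the start of this programme in the forelimb, so both early isoforms and late ones that are still near the bottom of the range can be met in the same RNA.

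The 250 bases upstream of 5 members are shown because 4 of them (Acta1, Myl1, Tnni1 and Tnnt2) were bright members that stood higher in both knockout arrays, while both knockout arrays of the actin gene Actc1 lay inside the range of its wild-type arrays. They were read from RefSeq on GRCm38.p6, 5′ to 3′ on the gene's strand, and end just before the annotated start. The windows of Myl1 and Tnni1 lie inside the annotated span of their genes. Capitals mark 2 kinds of motif: the E-box, CANNTG, the site of basic helix-loop-helix factors such as MYOD, and the CArG box, the site of serum response factor, in which CC and GG enclose a run of A and T.
Acta1 (chr8:123894776-123895025, minus strand): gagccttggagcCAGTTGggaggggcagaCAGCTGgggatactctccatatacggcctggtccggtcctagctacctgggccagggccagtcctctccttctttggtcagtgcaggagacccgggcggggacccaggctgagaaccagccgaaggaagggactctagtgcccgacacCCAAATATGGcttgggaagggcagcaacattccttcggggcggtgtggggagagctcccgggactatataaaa
Actc1 (chr2:114052876-114053125, minus strand): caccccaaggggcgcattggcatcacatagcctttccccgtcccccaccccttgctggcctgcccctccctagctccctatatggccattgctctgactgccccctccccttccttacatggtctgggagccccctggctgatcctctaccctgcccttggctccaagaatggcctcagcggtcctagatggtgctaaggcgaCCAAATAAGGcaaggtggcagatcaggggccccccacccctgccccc
Myl1 (chr1:66945057-66945306, minus strand): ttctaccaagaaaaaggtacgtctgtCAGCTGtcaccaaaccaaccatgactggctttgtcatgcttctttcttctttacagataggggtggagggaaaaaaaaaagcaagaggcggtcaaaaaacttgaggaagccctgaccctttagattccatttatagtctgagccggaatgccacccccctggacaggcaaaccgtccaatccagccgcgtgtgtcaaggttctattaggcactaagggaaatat
Tnni1 (chr1:135799171-135799420, plus strand): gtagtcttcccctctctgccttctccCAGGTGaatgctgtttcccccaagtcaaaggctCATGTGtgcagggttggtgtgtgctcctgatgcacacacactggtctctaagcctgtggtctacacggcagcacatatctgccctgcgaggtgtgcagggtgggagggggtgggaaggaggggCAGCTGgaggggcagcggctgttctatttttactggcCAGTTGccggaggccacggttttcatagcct
Tnnt2 (chr1:135836084-135836333, plus strand): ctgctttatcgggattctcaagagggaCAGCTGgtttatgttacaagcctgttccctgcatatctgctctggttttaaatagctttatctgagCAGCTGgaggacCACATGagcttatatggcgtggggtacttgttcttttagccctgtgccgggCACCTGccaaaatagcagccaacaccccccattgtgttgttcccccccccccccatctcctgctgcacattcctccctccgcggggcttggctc
In Acta1 a CArG box, CCAAATATGG, begins 73 bases before the start, with E-boxes at 238 and 221 bases. Actc1 has the CArG box CCAAATAAGG at 47 bases and no CANNTG in the stretch shown. The E-box form CAGCTG was found at 221 bases in Acta1, 224 in Myl1, 68 in Tnni1, and 223 and 157 in Tnnt2.

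Windows from 250 bases before to 50 after a start were found for 36 members, 42 windows in all; Actn3, Chrnd, Myom2, Neb, Tnni2 and Tnnt3 had no entry. CANNTG, which reads the same on both strands, was in 90.5% of the members' windows and in 72.3% of all 32851 windows of that length. CAGCTG, a form of CANNTG and so counted there too, was in 45.2% of the members' windows against 16.3% of all. The CArG box was in 16.7% against 1.63%, in windows of Acta1, Actc1, Ldb3, Myl3, Myl7 and Myom1. CATTCC, searched on both strands, is the M-CAT element of TEAD factors and was in 31.0% against 14.7%, and the MEF2 site was in 7.14% against 3.19%. TATAAA, on both strands, was in 23.8% against 13.6%. A match describes the letters of a window and is not a binding site, and some genes gave more than 1 window.

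Every array gave log2 values between 5.04 and 14.1. Testing was limited to the 14095 genes with an average of at least 5.60, which is percentile 40 of the table, and 31 members were among them. A member at or above percentile 75 (8.22) is called bright here, a tested member below it middle, and a member under the filter dim, which gave 13 bright, 18 middle and 11 dim members. Brightness depends on the probes as well as on the transcript, so levels of different genes were not set against each other. Shox2 read 10.57 and 10.37 in the wild-type arrays and 9.58 and 8.88 in the knockout arrays (48, 50), a log2 difference of -1.24 ± 0.21 (SE; limma, adjusted p = 0.322). The pools also differed in sex-linked genes: Y-linked Eif2s3y stood at 5.37 and 5.26 in the wild type and at 9.56 and 9.65 in the knockout, and Xist was lower in the knockout by a log2 difference of -1.01 (limma, adjusted p = 0.217). Both knockout arrays stood above both wild-type arrays in Eif2s3y and below them in Xist. Sex composition thus followed genotype in all arrays and cannot be separated from it here. For that reason the part of sex in the differences below was not tested. In pooled limbs, fewer cells of a type and less RNA per cell cannot be told apart.

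Markers of the skeletal muscle lineage were present in all pools. Whether they came from the limb's own muscle or from other muscle in the dissected tissue was not tested. All 7 lineage markers (Pax3, Pax7, Myf5, Myod1, Myog, Des and Chrna1) passed the filter, and their mean log2 level lay between 7.92 and 8.02 in the 4 arrays. That mean averages opposite movements and does not show equal muscle content. Pax3, Pax7 and Myod1 were lower on array 50 than on array 48 in both genotypes, and Myog, Des and Chrna1 were higher. In the wild type (48, 50) Myod1 read 9.55 and 9.13, and Des 7.39 and 7.85. Des and Chrna1 are also members of the muscle gene list. Among 5 heart markers Nppa, Nppb and Tbx20 were dim and Nkx2-5 and Hand1 stood at percentiles 58.0 and 40.8, with list means between 5.63 and 5.67 in the 4 arrays. Smooth muscle and pericyte markers had list means of 6.84 in both wild-type arrays and 6.74 and 6.78 in the knockout arrays, with Cnn1 dim and 4 of 6 lower in both array pairs. Over all tested genes 31.0% were lower and 32.1% higher in both pairs. The 6 endothelial markers were all lower in both pairs, with list means of 9.12 and 9.14 in the wild type and 8.87 and 8.96 in the knockout, and 4 of 5 measured erythroid markers were lower in both pairs, with means of 9.45 and 9.60 against 9.33 and 9.42. Of 4 limb mesenchyme markers 3 were higher in both pairs, with means of 11.06 and 11.10 against 11.24 and 11.21, and the 4 measured nerve and Schwann cell markers had means of 6.90 and 6.76 against 6.81 and 6.75. The part of these cell types in the muscle values was not tested.

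Among the tested muscle genes, 22 of 31 had higher and 9 lower mean values in the knockout, where 6984 of the 14095 tested genes had higher values. In limma 0 of the 31 had an adjusted p under 0.05, where 0.0213% of all tested genes did. That share is 3 genes, the Y-linked Eif2s3y, Uty and Kdm5d. At an unadjusted p under 0.05 there were 5 members, all higher in the knockout (Acta1, Tnni1, Myl1, Tnnt2 and Mybph), 16.1% of the 31, and the share over all tested genes was 10.2% in both directions and 5.19% for higher values. A log2 difference of at least 0.25 in favour of the knockout was measured for 7 members and for 4.34% of all genes, and none of the tested members was lower by as much. The median difference over the 31 was 0.10, against -0.00098 over all 14095 genes, and the values ran from -0.19 (Tnni3) to 0.50 (Acta1). Without wild-type array 48 that median was -0.054 and 3 members had an unadjusted p under 0.05; without wild-type array 50 these were 0.22 and 9 members. Both knockout arrays lay above both wild-type arrays in 6 members, 19.4% of them, which is near the 22.1% of all genes, and below in 4 (12.9%, against 19.9%). With 2 arrays against 2, an exact permutation test of any single gene cannot give a p below 0.333.

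**Figure D1:**
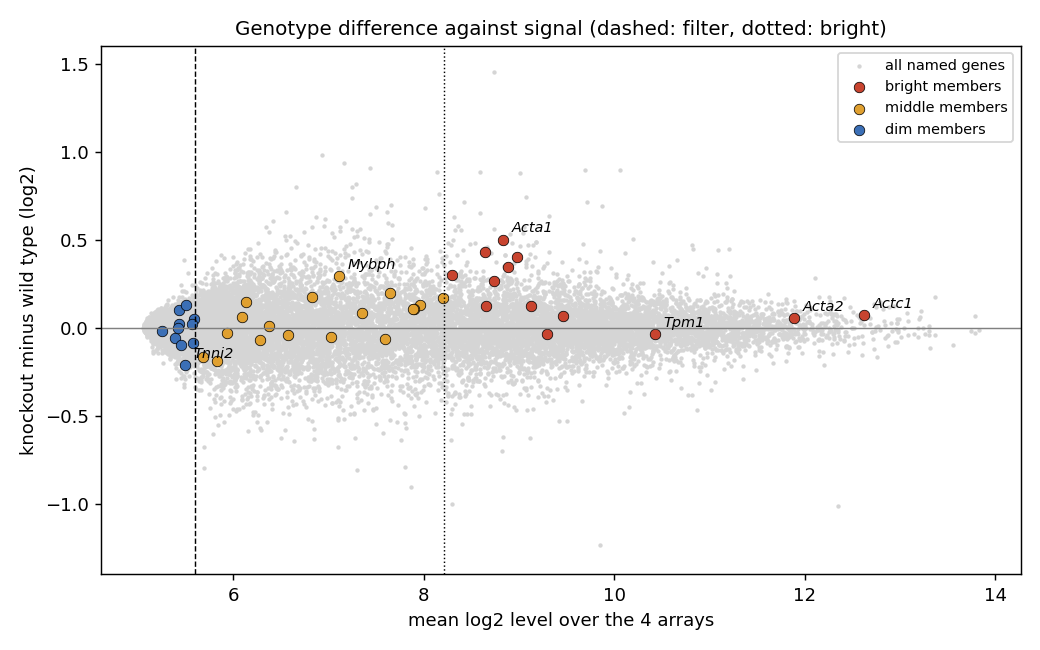
Difference between the genotypes (knockout minus wild type, log2) against the mean log2 level of the 4 arrays for all named genes (grey) and the 42 muscle genes by class; the dashed line is the filter at 5.60 and the dotted line the bright level of 8.22. The highest member is Acta1 at 0.50, the dim members lie between -0.21 and 0.13, and 4 genes lie outside the vertical axis.

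Of the 13 bright members, 11 had higher values in the knockout with a median of 0.13, and 4 of the 5 members with an unadjusted p under 0.05 were bright. Among all 6039 genes of that brightness 2935 had higher values in the knockout, and the median difference was -0.0032. Of these 6039 genes 7.44% had an unadjusted p under 0.05, 4.02% with higher values. Both knockout arrays lay above both wild-type arrays in 4 bright members, against 19.6% of bright genes, and the difference was positive in both array pairs in 7, against 31.4%. The bright median was -0.038 without wild-type array 48 and 0.31 without wild-type array 50. Of the 18 middle members, 11 were higher and 7 lower, with a median of 0.072. The 11 dim members were not tested; 6 were higher and 5 lower, with a median of 0.00012.

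All 3 actin genes had higher means in the knockout, and Acta1 stood apart from the others. Acta1, skeletal alpha-actin and the main actin of adult skeletal muscle, read 8.57 and 8.59 in the wild-type arrays and 8.95 and 9.22 in the knockout arrays (48, 50). Both knockout values stood above both wild-type values, and the wild-type arrays lay close together. The log2 difference was 0.50 ± 0.11 (SE, n = 2 pools per genotype), a 1.41-fold higher level, not past the threshold (adjusted p of limma 0.322), and it held place 65 of the 14095 genes when the signed differences were ordered from the highest in the knockout. It ran from 0.37 to 0.63 with each array left out. Actc1, cardiac alpha-actin and the early sarcomeric actin of the embryo, read 12.48 and 12.69 in the wild type and 12.63 and 12.68 in the knockout. Wild-type array 48 was the lowest and both knockout arrays lay between the wild-type ones, and the difference was 0.070 ± 0.098. Acta2, the smooth muscle actin that is also made in young muscle fibres, read 11.83 and 11.89 against 11.95 and 11.88, with overlapping genotypes and a difference of 0.055 ± 0.081. The coding sequences of these actins are nearly alike, and how far their probes tell them apart was not tested.

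Of the 4 myosin heavy chain genes among the members, Myh3 alone passed the filter. Myh3, the embryonic heavy chain, read 7.60 and 8.18 in the wild type and 7.87 and 8.17 in the knockout. The genotypes overlapped and both arrays numbered 50 stood above both numbered 48; the genotype difference was 0.13 ± 0.20. The perinatal chain Myh8 was just under the filter and read 5.55 and 5.58 in the wild type and 5.54 and 5.68 in the knockout. The slow and cardiac chains Myh7 and Myh6 stayed between 5.32 and 5.61, near the bottom of the range.

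All 3 tested myosin light chain genes had higher means in the knockout, with a median difference of 0.40. Myl1, the essential light chain of fast skeletal muscle, read 8.28 and 8.58 in the wild type and 8.79 and 8.93 in the knockout. Both knockout values were above both wild-type values, and the difference of 0.43 ± 0.12 was 1.35-fold (limma, adjusted p = 0.368). Myl4, the embryonic and atrial light chain, read 8.24 and 9.33 in the wild type and 8.89 and 9.47 in the knockout. Both arrays numbered 50 stood above both numbered 48, the genotypes overlapped, and the difference of 0.40 had a standard error of 0.35 (limma, adjusted p = 0.742). Without wild-type array 48 it was -0.15, and without wild-type array 50 it was 0.95. Mylpf, the fast regulatory light chain, lay between 5.87 and 6.25 with a difference of 0.063 ± 0.14. Myl2, Myl3 and Myl7, light chains of slow muscle and of the heart chambers, were dim, with values between 5.21 and 5.48.

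Troponins give thin filaments their calcium switch, and 6 of 7 tested genes had higher means in the knockout, with a median difference of 0.20. Tnni1, the inhibitory subunit of slow and embryonic muscle, read 8.70 and 8.73 in the wild type and 9.05 and 9.07 in the knockout. The genotypes were well apart and the arrays of a genotype nearly equal, and the difference of 0.34 ± 0.077 was 1.27-fold (limma, adjusted p = 0.322). It stayed between 0.33 and 0.36 with each array left out. Tnnt2, the cardiac and embryonic tropomyosin-binding subunit, read 8.56 and 8.64 against 8.93 and 8.81, again without overlap, a difference of 0.27 ± 0.086 (limma, adjusted p = 0.405). Tnnc1, the calcium-binding subunit of slow and cardiac muscle, read 7.76 and 8.52 in the wild type and 8.21 and 8.67 in the knockout. The genotypes overlapped and both arrays numbered 50 stood above both numbered 48, with a genotype difference of 0.30 ± 0.26 that became -0.083 without wild-type array 48 and 0.68 without wild-type array 50.

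Tnnt1, the slow tropomyosin-binding subunit, stood just under the bright level with a mean of 8.20 and a difference of 0.17 ± 0.093. The fast genes Tnnc2 and Tnnt3 differed by 0.20 ± 0.15 and 0.14 ± 0.11. Tnni3, the cardiac inhibitory subunit, had the opposite sign: it read 6.00 and 5.86 in the wild type and 5.79 and 5.69 in the knockout, all near the bottom of the range, a difference of -0.19 ± 0.090 (limma, adjusted p = 0.536). Tnni2, the fast inhibitory subunit, was dim and read 5.59 and 5.61 against 5.36 and 5.41. It was the lowest of the 42 by difference, at -0.21, and was not tested. In the RefSeq gene order, 6 pairs of members lie close together. The neighbours Tnni1 and Tnnt2, with 1 annotated gene between them, both had higher values in both knockout arrays. The adjacent genes Tnnt1 and Tnni3, with 0 genes between them, differed in sign, at 0.17 and -0.19. Chrnd and Chrng are adjacent too, and Tnni2 lies 2 genes from Tnnt3.

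Tropomyosins lie along the thin filament and cover the myosin sites of actin. Tpm1 read 10.42 and 10.46 in the wild type and 10.36 and 10.45 in the knockout, and Tpm2 read 8.97 and 9.15 against 9.23 and 9.15. In both genes the genotypes overlapped, with differences of -0.036 ± 0.082 and 0.13 ± 0.094. Tpm3 lay between 6.27 and 6.49 with a difference of 0.010 ± 0.11. These genes are also used outside muscle.

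Of 8 tested scaffold and filament genes 5 had higher and 3 lower means in the knockout, with a median of 0.084. Ttn, the giant spring of the sarcomere, read 9.17 and 9.45 in the wild type and 9.31 and 9.24 in the knockout, a difference of -0.034 ± 0.11. Neb, the ruler of the thin filament, read 9.30 and 9.56 against 9.46 and 9.52, a difference of 0.064 ± 0.11. Actn2, alpha-actinin of the Z-disc, read 8.39 and 8.80 against 8.58 and 8.85, a difference of 0.12 ± 0.16. In all 3 genes the genotypes overlapped and wild-type array 48 was the lowest array.

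Mybph, myosin-binding protein H of the thick filament, was the scaffold gene with the largest difference. It read 6.86 and 7.07 in the wild type and 7.20 and 7.31 in the knockout, without overlap, a difference of 0.29 ± 0.10 or 1.22-fold (limma, adjusted p = 0.415). Without wild-type array 48 that was 0.19. Its relative Mybpc1 differed by 0.10 ± 0.15, the fast alpha-actinin gene Actn3 by 0.17 ± 0.18 and the intermediate filament gene Des by -0.063 ± 0.15. Myom1, an M-band protein and the member just above the filter, read 5.69 and 5.83 against 5.60 and 5.59, with both knockout arrays below both wild-type arrays and a difference of -0.16 ± 0.085. Myom2, the Z-disc gene Ldb3 and the caveolin gene Cav3 were dim, with values between 5.38 and 5.69. The creatine kinase gene Ckm, which buffers energy in mature fibres, was dim too, between 5.39 and 5.55.

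Assembly factors and receptor subunits had median differences of -0.039 and -0.029. Smyd1 and Unc45b, which help fold and place myosin, differed by -0.039 ± 0.11 and -0.070 ± 0.080, and Klhl41, a kelch protein of the growing sarcomere, by 0.081 ± 0.086. The acetylcholine receptor at the nerve-muscle contact has a fetal form built from Chrna1, Chrnd, Chrng and a beta subunit. Chrna1 read 7.67 and 7.99 in the wild type and 7.84 and 8.03 in the knockout, a difference of 0.11 ± 0.13. Chrng, the fetal gamma subunit, read 7.04 and 7.05 against 6.99 and 7.001, with both knockout arrays below both wild-type arrays, and differed by -0.052 ± 0.077. Chrnd differed by -0.029 ± 0.089.

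**Figure D2:**
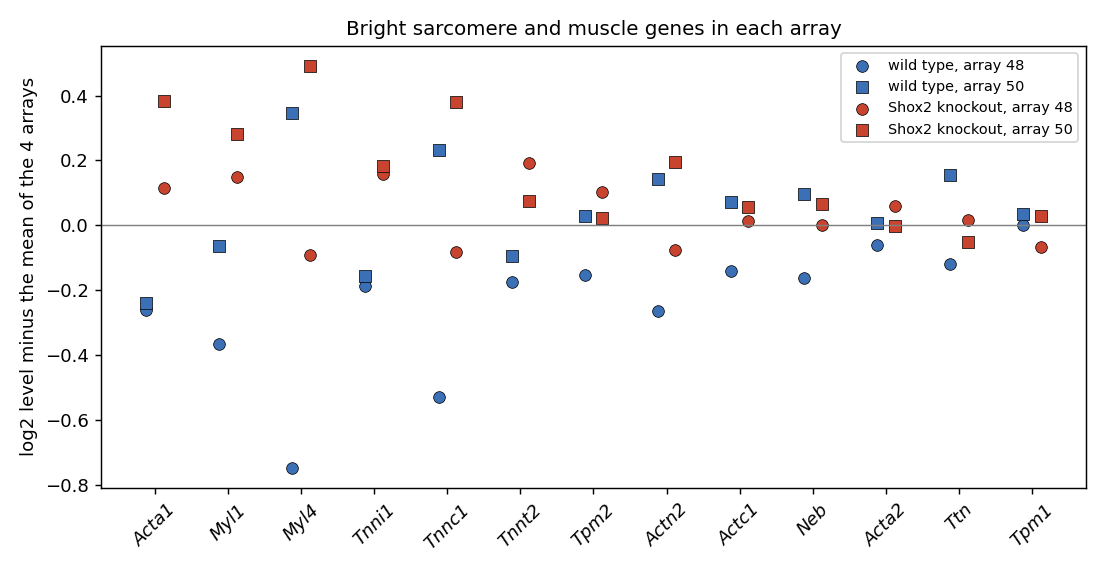
Log2 level of each of the 13 bright members in the 4 arrays, as the distance from the gene's own mean; blue is wild type, red is Shox2 knockout, circles are arrays numbered 48 and squares those numbered 50. Genes are ordered by the genotype difference from Acta1 (0.50) to Tpm1 (-0.036); wild-type array 48 is the lowest point of every gene shown but Tpm1.

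The genotype difference was read within each pair of same-numbered arrays. Between the arrays numbered 48, knockout values were higher in 26 of the 31 tested members, against 50.3% of all genes, with a median of 0.17. Between the arrays numbered 50 they were higher in 12 of 31, against 50.5% of all genes, with a median of -0.012. The difference was positive in both pairs for 12 members (38.7%, against 32.1% of all genes) and negative in both for 5 (16.1%, against 31.0%): Tpm1, Tnni3, Myom1, Chrng and Unc45b. In 14 members (45.2%) it was positive in the pair numbered 48 and negative in the pair numbered 50, which was so for 18.0% of all genes. The opposite combination was found in 0 members and in 18.4% of all genes. In the 14 members the values in the pair numbered 50 ran from -0.0059 (Tpm2) to -0.245 (Smyd1). Most of them were smaller in size than the SE of the gene's genotype difference, so their sign carries little. Knockout values were higher in 12 of the 13 bright members in the pair numbered 48, against 49.7% of bright genes, and in 7 in the pair numbered 50, against 49.8%. The bright members had medians of 0.26 and 0.053 in these pairs, and the middle members 0.17 and -0.036. Acta1 (0.38 and 0.62), Tnni1 (0.35 and 0.34), Myl1 (0.51 and 0.35) and Mybph (0.34 and 0.24) had differences over 0.2 in both pairs.

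**Figure D3:**
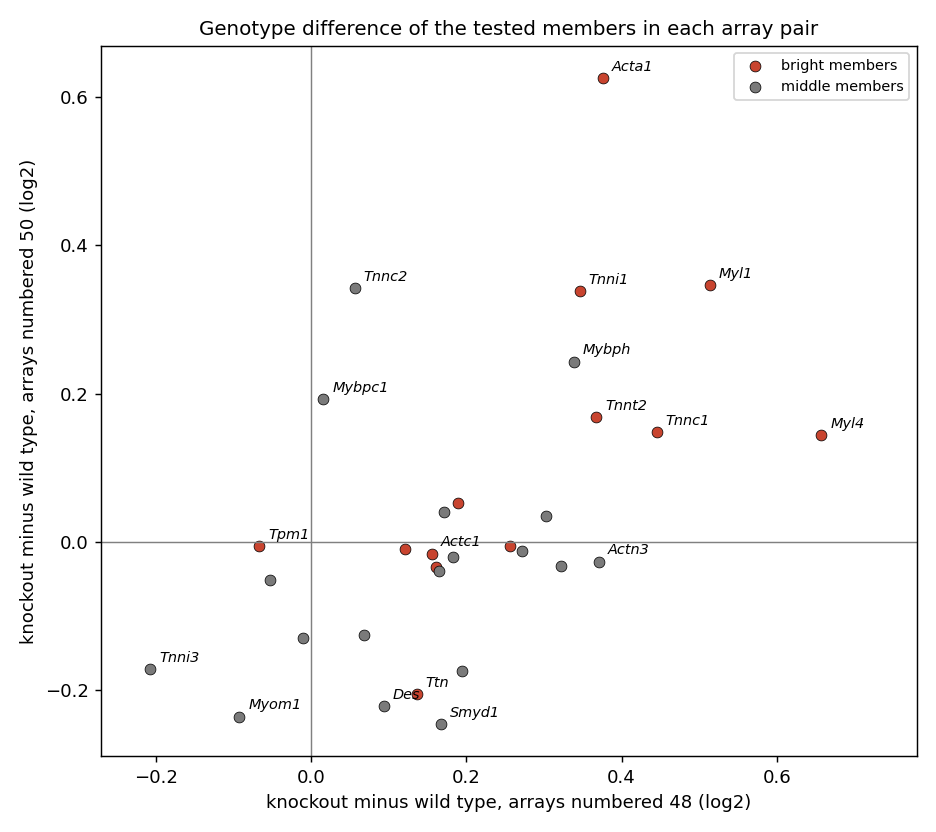
Knockout minus wild type (log2) for the 31 tested members between the arrays numbered 48 (horizontal) and between those numbered 50 (vertical); red points are bright and grey points middle members. Acta1, Myl1, Tnni1 and Mybph lie high on both axes, and 14 members lie to the right of the vertical line and below the horizontal line, most of them close to the latter.

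The arrays of a genotype were then compared with each other. Within the wild type, 30 of 31 tested members read higher on array 50 than on array 48, against 50.9% of all genes, with a median of 0.21; Tnni3 was the exception. Within the knockout 18 of 31 did, against 52.3% of all genes, with a median of 0.044, and these 18 read higher in both genotypes, against 32.3% of all genes. Among the bright members 13 of 13 did so in the wild type and 9 in the knockout, against 50.3% and 52.0% of bright genes. The count of 30 of 31 within the wild type and that of 26 of 31 in the pair numbered 48 both use wild-type array 48. These counts are not independent, since a low reading of that array alone would raise both. Members measured on the same arrays are also not replicates of each other. The genotype differences of Myl4 and Tnnc1 turned negative without wild-type array 48. Those of Acta1, Tnni1, Myl1, Tnnt2 and Mybph could not turn with an array left out. In these genes both knockout arrays lay above both wild-type arrays, which fixes the sign.

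Both arrays numbered 50 stood above both numbered 48 in 13 members, 41.9% of those tested, against 18.3% of all genes, and below in 0 members, against 18.6%. The largest such difference was that of Myl4, at 1.09 in the wild type and 0.58 in the knockout, which held place 8 of 14095 genes when the signed averages of both were ordered from the highest on array 50. Tnnc1 followed at 0.76 and 0.46 (place 20) and Myh3 at 0.59 and 0.30 (place 60). Actn3 (0.57 and 0.17), Actn2 (0.41 and 0.27), Mybpc1 (0.23 and 0.41) and Des (0.46 and 0.15) were also higher on array 50 in both genotypes. Tnni1 differed by 0.031 and 0.023 between the numbers. No test was made of the array number.

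Many regulators of these genes had the opposite order of array numbers. Of 17 tested myogenic regulators, 12 were lower on array 50 in both genotypes, against 28.8% of all genes. Another 3 were higher in both, against 32.3%. Both arrays numbered 50 lay below both numbered 48 in 10, against 18.6% of all genes, and above in 2, against 18.3%. Myod1 read 9.55 and 9.13 in the wild type and 9.76 and 9.16 in the knockout (48, 50), and Pax7, a gene of muscle progenitors, read 7.79 and 7.46 against 7.73 and 7.43. Both genes were thus higher on each array numbered 48. Pax3, which marks migrating progenitors, read 6.24 and 6.07 against 6.17 and 6.01. Myog, the regulator of terminal differentiation, read 9.701 and 9.96 in the wild type and 9.67 and 9.699 in the knockout. Both knockout arrays lay below both wild-type arrays, as in 19.9% of all genes. Knockout array 50 and wild-type array 48 were nearly equal, so this order carries little. Mef2c, a partner of the myogenic factors, was higher on array 50 by 0.34 and 0.15.

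**Figure D4:**
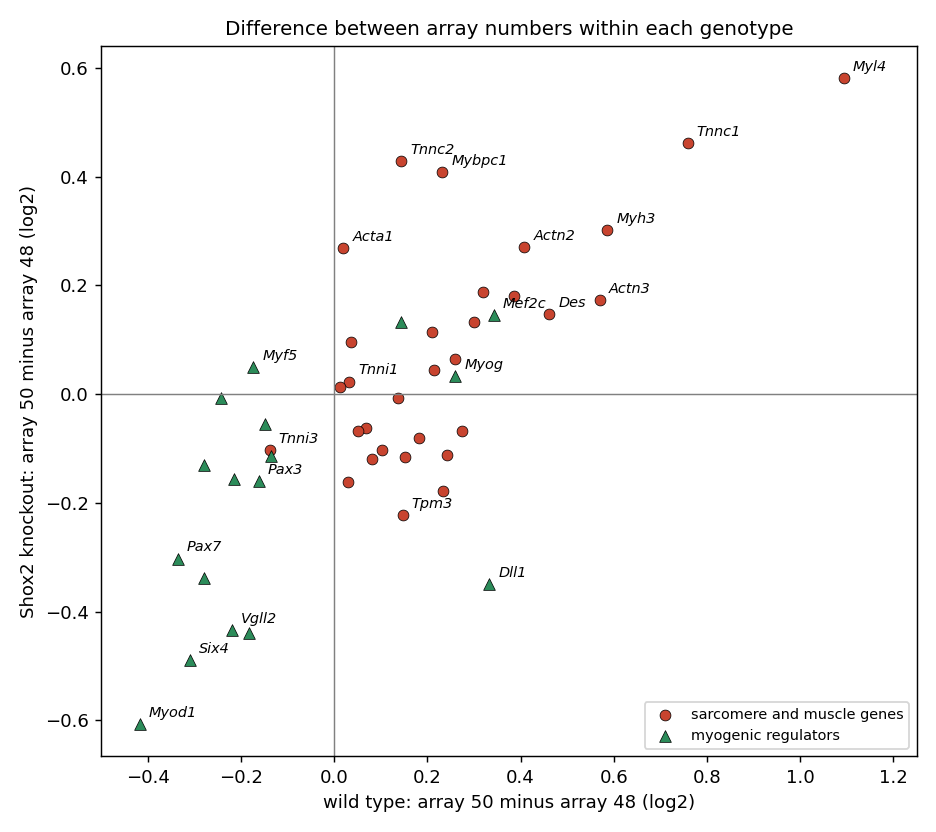
Array 50 minus array 48 (log2) within the wild type (horizontal) and within the knockout (vertical) for the 31 tested sarcomere and muscle genes (red circles) and 17 myogenic regulators (green triangles). Of the circles, 30 lie to the right of the vertical line, while 12 of the triangles lie at the lower left, Myod1 farthest.

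Between the genotypes the myogenic regulators differed in both directions. In limma 0 of the 17 passed and 1 had an unadjusted p under 0.05, where 10.2% of all tested genes did: Msc, a repressor of the MYOD family's activity, at -0.35 ± 0.11 (adjusted p = 0.395). The median was -0.045, with 8 higher and 9 lower. Met, the receptor that migrating progenitors need, differed by 0.15 ± 0.088. Myod1 differed by 0.12 ± 0.22, Myog by -0.15 ± 0.11, Myf5 by -0.10 ± 0.091, Pax7 by -0.046 ± 0.15 and Pax3 by -0.067 ± 0.099. Myf6 was dim, with a mean at percentile 29.5.

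In the other lists of the muscle programme, too, counts at an unadjusted p under 0.05 are to be read against the 10.2% of all tested genes, and the genes named with them are no result about their lists. Of 18 further sarcomere genes tested, 9 were higher and 9 lower (median 0.0040). In limma 0 passed and 2 had an unadjusted p under 0.05, both higher: Pdlim3, a Z-disc protein that binds alpha-actinin, at 0.36 ± 0.089 (adjusted p = 0.322) and Fhl1, a LIM protein of muscle, at 0.31 ± 0.11 (adjusted p = 0.419). The heavy chain genes of adult fast muscle, Myh1, Myh2 and Myh4, were dim. Of 11 tested genes for calcium handling, 6 were higher and 5 lower, 0 passed and 1 had an unadjusted p under 0.05, Cacnb1, the beta subunit of the muscle calcium channel, at 0.32 ± 0.083 (limma, adjusted p = 0.346). Jsrp1, a protein of the calcium release site, differed by 0.23 ± 0.12. Of 12 tested genes for fusion, the postsynapse and the dystrophin complex, 6 were higher and 6 lower, 0 passed and 2 had an unadjusted p under 0.05. These were the receptor kinase gene Musk, which organises the nerve-muscle contact, at -0.25 ± 0.097 (limma, adjusted p = 0.451), and the sarcoglycan gene Sgca at 0.20 ± 0.080 (limma, adjusted p = 0.464). The fusion gene Mymk read 7.75 and 8.27 in the wild type and 8.36 and 8.10 in the knockout, with wild-type array 48 the lowest.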

How the data were processed

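RNA of 4 pools, 2 per genotype, was measured on arrays. Per the labels, total RNA was labelled with biotin for Affymetrix arrays. The authors deposited 1 table of log2 values for 25206 probe sets, read as log2 from their range. At each rank, the sorted values of the arrays lay within 0.0017 of their median. A change common to most transcripts is therefore invisible. Background correction, summarisation and software are not given in the sources used here, and arrays have no read depth: their number limits the precision. The deposited annotation named 23185 probe sets (0 with several names, 2021 without). Genes at or above percentile 40 by mean were fitted with limma 3.58.1 (R 4.3.3, lmFit, eBayes, two-sided, no covariate). Benjamini-Hochberg adjustment was over 14095 genes, with a threshold of 0.05. Errors are SE of that fit. The procedure was run on simulated data with larger changes than any member had and no deviations shared by array number. Its power at the members' differences was not tested. Members, gene lists and rules were chosen with earlier results of these data known. All members are named, and values in all arrays are given for members at or above percentile 75, at least 0.25 different or at an unadjusted p under 0.05; Companion lists are named by their smallest unadjusted p-values. Myh3, Tnni2, Tnni3, Chrna1, Chrng, Mymk, Mef2c, Myh1, Myh2, Myh4, the sex-linked genes and the array-number values were added after their values were seen. Symbols matched RefSeq promoters (GRCm38.p6) for 36 of 42 members. Alternatives were 2 other filters, 2 normalizations, 2 variance models, a replicate block, other bright levels and each array left out.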

Additional observations from a re-analysis of the deposited data

How the results depend on the processing

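The labels give the arrays of both genotypes the same numbers without saying what they mean, and same-numbered arrays deviated from their group means together (r = 0.39 across genes). With the array number as a replicate block, limma called 382 genes (2.71%) in place of 3, 203 of them higher. Among the members it called 3 in place of 0: Acta1 (0.50, adjusted p = 0.0211), Myl1 (0.43, adjusted p = 0.0287) and Tnni1 (0.34, adjusted p = 0.0471). With each array left out, 4 to 5 genes were called over all and 0 members, the median over the tested members ran from -0.054 to 0.22 and that over the bright members from -0.038 to 0.31, the lowest without wild-type array 48 and the highest without wild-type array 50. In 7 of 14 members with planned values in all arrays the sign turned with an array left out. Without wild-type array 48 and without wild-type array 50 the values were -0.038 and 0.18 for Actc1, -0.083 and 0.33 for Actn2, -0.15 and 0.95 for Myl4, -0.066 and 0.19 for Neb, -0.083 and 0.68 for Tnnc1, and -0.17 and 0.10 for Ttn. Actn2 was also negative without knockout array 50 (-0.014), and Tpm1 was 0.012 without knockout array 48 and -0.084 without knockout array 50. In the alternatives other than the block and the left-out arrays, 0 of these signs turned and 0 members were called; the smallest adjusted p of a member was 0.251, with an intensity trend. The filter at percentile 60 left 24 members with a median of 0.12, no filter gave 0.064 over 42, and bright levels at percentiles 60 and 90 gave 0.12 and 0.055, the latter over 3 genes. Dim members lie near the lowest values of the arrays, so a difference in them could go unseen.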

Other observations

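Contractile genes of non-muscle cells and smooth muscle were examined as a companion list. Of 12 tested, 10 had lower and 2 higher values in the knockout, 8 were lower in both array pairs (31.0% of all genes were) and the median log2 difference was -0.070. In limma 0 passed and 0 had an unadjusted p under 0.05. Cald1, caldesmon of the actin filament, read 10.52 and 10.69 in the wild type and 10.45 and 10.49 in the knockout, a difference of -0.13 ± 0.090. Myh11, the smooth muscle heavy chain, read 5.78 and 5.77 against 5.84 and 5.97, a difference of 0.12 ± 0.085. The smooth muscle genes Cnn1 and Actg2 were dim.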
